A study of Mus musculus with 6 samples.

Results

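Neutrophil granule genes, 10 genes whose proteins fill the granules or the cytosol of neutrophils, were followed in cultured mouse erythroblasts treated with cholesterol or left without it. They were chosen by symbol, as primary granule genes (Mpo, Elane, Prtn3 and Ctsg), secondary granule genes (Ngp, Ltf, Camp and Lcn2) and the genes of calprotectin (S100a8 and S100a9). All 10 were among the 17463 genes in the deposited files, and all 10 passed the filter on low counts. Neutrophils store antimicrobial proteins in granules that form in sequence. Primary, or azurophil, granules are filled at the promyelocyte stage with myeloperoxidase and serine proteases, and secondary granules follow in myelocytes and metamyelocytes with lactoferrin, cathelicidin and lipocalin 2. Calprotectin, a calcium- and zinc-binding dimer, is made in large amounts in the neutrophil cytosol.

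The cells were erythroblasts of C57BL/6J fetal liver, depleted of cells that carried TER119, a surface protein gained by maturing erythroid cells, and kept in culture with erythropoietin (Epo) for 30 h. The 3 control samples received no cholesterol (the labels call them untreated, and the study also calls them vehicle-treated), and the 3 cholesterol samples received 40 µM cholesterol for the whole culture. According to the study's methods, the cells that were TER119+ at the end were sorted and their RNA was sequenced, and the labels describe poly(A) selection and single-end reads. Samples are numbered 1 to 3 in both groups without a statement of what a number stands for. The legend of the study's figure that holds this experiment gives its data as coming from 3 independent experiments. It does not name the sequenced samples, and whether they came from separate cultures is not stated for them. The p-values therefore measure the spread between these samples, which may be technical. Total counts lay between 19826797 and 20061702 per sample. The erythroid genes Slc4a1, Tfrc, Hbb-bt and Hba-a1 were abundant in every sample, and the 11 erythroid markers found in the files summed to between 74152 and 108810 CPM (counts relative to the library size after TMM scaling).

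In these cells the granule genes were rare but measured in every sample. Together they held between 893 and 14032 counts, which was 0.0045% to 0.0702% of a sample's counts. The level differed mainly with the sample number. In both groups, each of the 10 genes was lowest in sample 1 and highest in sample 3, a pattern that 18.7% of all tested genes had. Within same-numbered pairs the genes were lower with cholesterol in 28 of 30 comparisons, with log2 ratios down to −1.65. Lower in all 3 pairs were 8 of the 10 genes, against 20.1% of all tested genes, and higher in all 3 pairs were 0, against 19.9%. The plot of the 10 genes by sample shows both patterns at once. In bulk RNA, fewer cells of a type and less RNA per cell cannot be told apart, so a lower level here may be either.

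**Figure D1:**
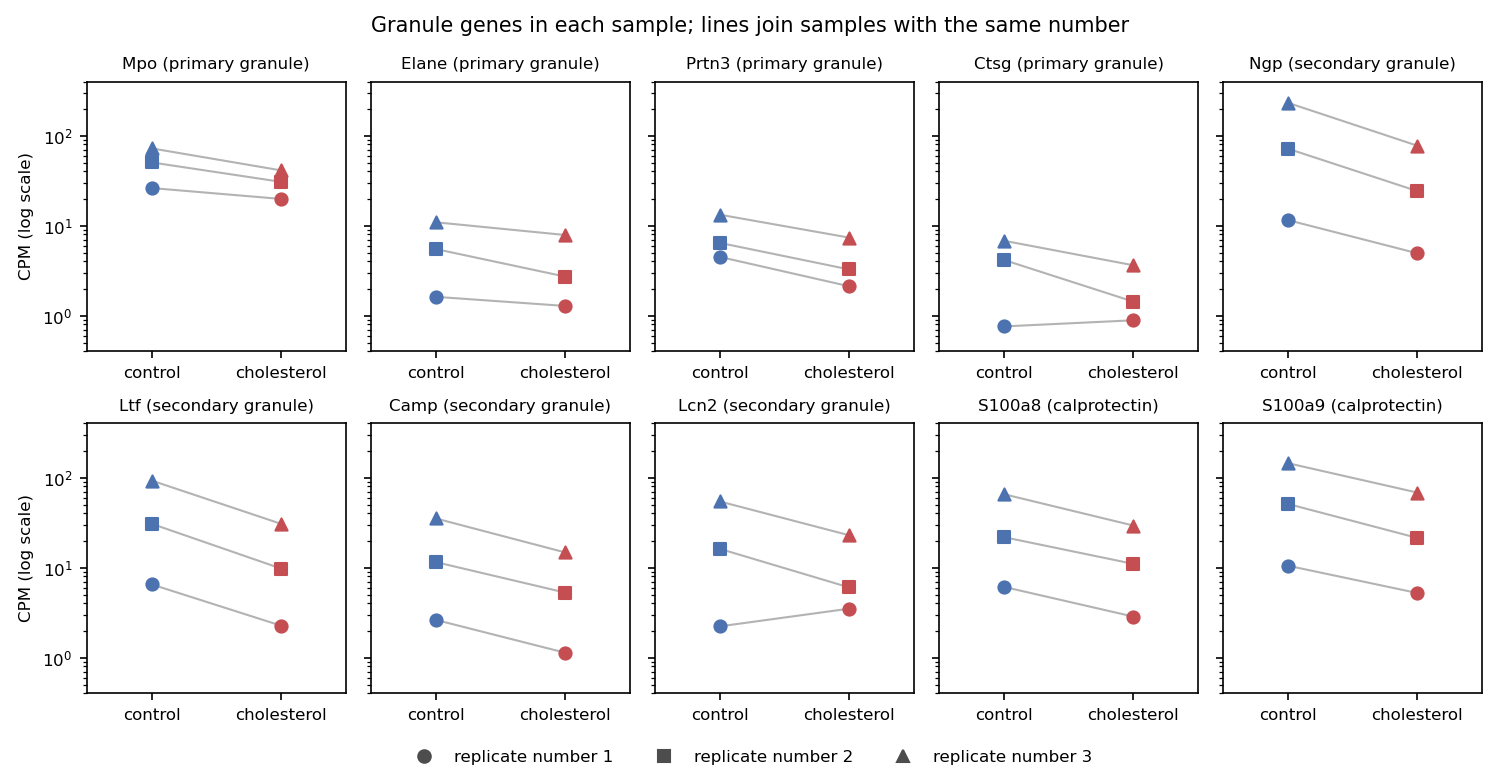
Level of each granule gene in CPM (log scale) in the 3 control (blue) and 3 cholesterol (red) samples, with the sample number as the marker shape and a line between samples of the same number. Sample 3 is highest and sample 1 lowest in both groups for all 10 genes, and the lines fall towards cholesterol in every panel except pair 1 of Ctsg and of Lcn2.

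Among the primary granule genes, Mpo, which encodes the haem enzyme myeloperoxidase that makes hypochlorous acid, had the most reads. Its level in samples 1, 2 and 3 was 26.2, 50.5 and 72.3 CPM for the controls and 19.8, 30.7 and 41.1 CPM for cholesterol, the order kept for all values that follow. Each cholesterol sample lay below the control sample of the same number, while the groups overlapped. Elane, which encodes neutrophil elastase, was at 1.62, 5.50 and 10.9 CPM in the control samples and at 1.28, 2.72 and 7.87 CPM with cholesterol. Prtn3, which encodes proteinase 3, was at 4.50, 6.44 and 13.2 CPM and at 2.12, 3.26 and 7.36 CPM. Both proteases were lower with cholesterol in all 3 pairs, at 47.1% to 79.2% of the control level. Ctsg, which encodes the serine protease cathepsin G, was the rarest member, at 0.758, 4.16 and 6.80 CPM in the control samples and 0.887, 1.43 and 3.63 CPM with cholesterol. In pair 1 it rested on 15 counts in the control and 18 in the cholesterol sample, and the 95% interval of that log2 ratio, which covers counting error only, ran from −0.84 to 1.32 and so held 0.

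Elane and Prtn3 lie side by side on chromosome 10, 3137 bases apart in build GRCm38.p6, the build named in the submitters' processing notes, at chr10:79886312-79888216 and chr10:79879667-79883174. Mpo lies at chr11:87793784-87804412 and Ctsg at chr14:56099885-56102574. The 250 bases before the start of each member were read from RefSeq promoter sequences of that build, which held all 10 genes, and searched on both strands for GAGGAAG, the core bound by PU.1, for TTGCNNAA, a core bound by C/EBP factors, and for AGATAA, bound by GATA factors. PU.1 and the C/EBP family are the main transcription factors of granulocyte development. GAGGAAG stood in the promoters of all 4 primary granule genes, and of Lcn2 and S100a8, and in 10.6% of 32851 promoters of the same length. TTGCNNAA stood in those of Ngp, Ltf, Lcn2 and S100a9, and in 9.56% of all promoters, and AGATAA in those of Ltf and S100a9, and in 9.99%. The promoter of Camp held none of them. A match describes the letters of this stretch and is not a test of binding. The promoters of the neighbouring proteases Prtn3 (chr10:79879417-79879666, plus strand) and Elane (chr10:79886062-79886311, plus strand) are shown because each holds GAGGAAG, and those of Ngp (chr9:110419558-110419807, plus strand) and Ltf (chr9:111019042-111019291, plus strand) because they belong to the members with the lowest log2 ratios between cholesterol and control and both hold TTGCNNAA. They run 5′ to 3′ and end at the base before the start, with the matches in capitals.
Prtn3: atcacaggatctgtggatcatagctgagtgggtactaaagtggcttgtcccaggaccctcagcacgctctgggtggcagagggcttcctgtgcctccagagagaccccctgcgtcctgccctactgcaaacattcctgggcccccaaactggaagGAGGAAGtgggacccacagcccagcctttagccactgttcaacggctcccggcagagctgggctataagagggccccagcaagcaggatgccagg
Elane: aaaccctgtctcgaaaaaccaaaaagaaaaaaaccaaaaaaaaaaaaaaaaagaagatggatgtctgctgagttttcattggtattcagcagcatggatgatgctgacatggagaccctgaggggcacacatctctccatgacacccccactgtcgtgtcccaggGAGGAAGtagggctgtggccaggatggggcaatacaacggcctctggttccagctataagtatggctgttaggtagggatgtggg
Ngp: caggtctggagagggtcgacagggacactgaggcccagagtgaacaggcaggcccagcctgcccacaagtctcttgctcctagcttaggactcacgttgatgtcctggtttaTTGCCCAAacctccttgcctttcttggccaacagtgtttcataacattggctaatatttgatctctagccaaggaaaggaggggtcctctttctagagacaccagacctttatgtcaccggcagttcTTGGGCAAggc
Ltf: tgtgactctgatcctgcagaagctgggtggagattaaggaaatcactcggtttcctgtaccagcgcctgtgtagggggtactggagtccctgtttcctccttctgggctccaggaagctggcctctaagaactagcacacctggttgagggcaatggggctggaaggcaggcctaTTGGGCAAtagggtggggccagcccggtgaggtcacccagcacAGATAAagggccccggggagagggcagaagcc

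The secondary granule genes varied more between sample numbers. Ngp, which encodes neutrophilic granule protein, a member of the cystatin family, was at 11.5, 71.7 and 232 CPM in the controls and at 4.93, 24.2 and 77.4 CPM with cholesterol. Ltf, which encodes the iron-binding protein lactoferrin, was at 6.52, 30.8 and 93.0 CPM in the control samples and at 2.27, 9.78 and 30.7 CPM with cholesterol. Camp, which encodes the precursor of the antimicrobial peptide cathelicidin, was at 2.63, 11.5 and 35.3 CPM and at 1.13, 5.29 and 14.8 CPM. In these 3 genes every cholesterol sample lay below its same-numbered control, with log2 ratios in pairs 1, 2 and 3 of −1.52, −1.65 and −1.60 for Ltf, −1.21, −1.13 and −1.25 for Camp, and −1.23, −1.57 and −1.58 for Ngp. Cholesterol sample 3 nevertheless lay above control sample 2 in Ngp and Camp, and cholesterol sample 2 above control sample 1 in all 3 genes. All 3 genes lie on chromosome 9, with 570351 bases between Camp (chr9:109847377-109849456) and Ngp (chr9:110419808-110423012) and 596279 between Ngp and Ltf (chr9:111019292-111042766).

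Lcn2, which encodes lipocalin 2, a binder of bacterial siderophores, departed from the other secondary granule genes in 1 sample. It was at 2.22, 16.2 and 54.5 CPM in the control samples and at 3.50, 6.03 and 22.9 CPM with cholesterol. In pairs 2 and 3 its log2 ratio was −1.43 and −1.25, between the −1.65 of Ltf and the −1.13 of Camp in pair 2, whereas in pair 1 it was 0.65, from 44 counts in the control and 71 in the cholesterol sample (95% interval 0.09 to 1.23, counting error only). Per length, Lcn2 was at between 0.266 and 0.408 of the FPKM of Ngp in the other 5 samples and at 0.979 of it in cholesterol sample 1. Lcn2 lies at chr2:32384637-32387739.

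The calprotectin genes S100a8 and S100a9 lie on chromosome 3, at chr3:90669071-90670034 and chr3:90692630-90695721, and their proteins form a dimer. S100a8 was at 6.12, 21.8 and 65.6 CPM in the controls and at 2.86, 11.0 and 29.4 CPM with cholesterol. S100a9 was at 10.5, 51.1 and 144.9 CPM and at 5.22, 21.4 and 68.3 CPM. Both were lower in every cholesterol sample than in its partner, at 41.9% to 50.4% of the control level. Their summed FPKM differed 24.1-fold between the lowest and the highest of the 6 samples, while the ratio of S100a9 to S100a8 FPKM stayed between 1.25 and 1.71.

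The plot of differences within pairs gives each ratio with its counting interval, which covers counting error only, since PCR copies without molecular identifiers are not independent molecules. Of the 30 intervals, 27 lay wholly below 0, 2 held 0 (Elane and Ctsg in pair 1) and 1 lay above 0 (Lcn2 in pair 1). All 3 exceptions fell in pair 1, where the members had the fewest counts.

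**Figure D2:**
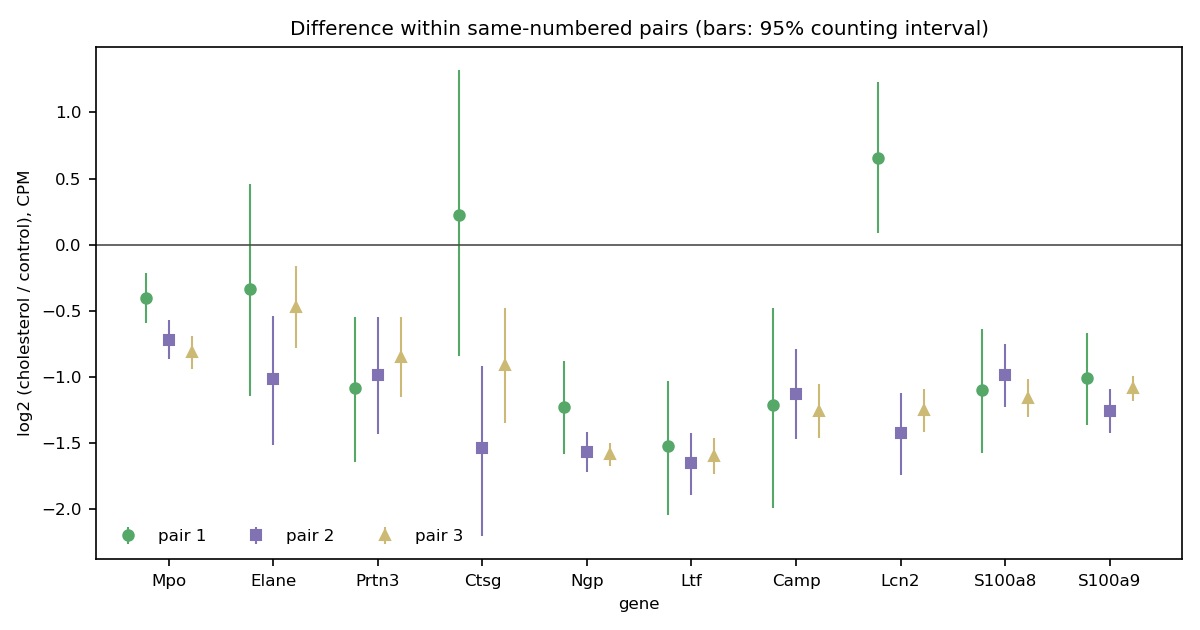
Log2 ratio of cholesterol to control in CPM within same-numbered pairs 1 to 3 for each of the 10 genes, with bars for the 95% interval from counting error alone. Points of Ltf, Camp, S100a8 and S100a9 sit close together near or below −1, and Lcn2 in pair 1 is the one interval above 0.

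Whether the members differed between the treatments was tested with edgeR's quasi-likelihood test over 11277 genes, with Benjamini-Hochberg adjustment. With condition alone in the model, 0 of the 10 genes passed an adjusted p of 0.05, and the share of all tested genes called lower was 0%, with 0.00887% called higher. None of the 10 had an unadjusted p under 0.05, against 1.92% of all genes in the lower and 0.718% in the higher direction, and DESeq2 and limma on log2(FPKM + 1) and log2(FPKM + 0.1) called 0 members as well. The groups overlapped for all 10 genes, while 4.28% of all genes did not overlap and were lower with cholesterol, and 3.72% did not overlap and were higher. The mean of Ngp was 105 ± 114 CPM in control and 35.5 ± 37.5 CPM with cholesterol (SD, n = 3 in each group), and the control SD exceeded the difference between the means. Mpo, with the smallest standard error of the 10 in this fit, was at 49.7 ± 23.1 and 30.6 ± 10.7 CPM (SD, n = 3). Its fitted difference was −0.70 on the log2 scale (edgeR, standard error 0.41, adjusted p = 0.9998). Single samples moved it both ways, to −0.33 without control sample 3 and −0.47 without cholesterol sample 1. It was −1.003 without control sample 1 and −0.97 without cholesterol sample 3. An exact permutation test of 3 samples against 3 allows no p below 0.1.

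Across genes, departures from the group mean correlated at 0.729, 0.348 and 0.825 between the samples numbered 1, 2 and 3. Cholesterol sample 2 correlated about as well with control sample 1 (0.346), so the pairing is unclear for number 2. The model was also fitted with the sample number as a block. In that fit 9 of the 10 genes fell with cholesterol at an adjusted p under 0.05, and 0 rose, where 5.2% of all tested genes were called lower and 1.65% higher. Ltf changed most of the 10 and fell by 1.61 on the log2 scale (edgeR with the block, standard error 0.07, adjusted p = 3.79e-11). Ngp fell by 1.53 on the log2 scale (standard error 0.06, adjusted p = 8.05e-12), Camp by 1.21 (standard error 0.10, adjusted p = 5.19e-07), S100a9 by 1.14 (standard error 0.06, adjusted p = 8.85e-10) and S100a8 by 1.09 (standard error 0.08, adjusted p = 3.35e-08). The primary granule genes had smaller log2 fold changes, from −0.95 in Prtn3 (adjusted p = 0.000207) over −0.92 in Ctsg (adjusted p = 0.0428) and −0.67 in Mpo (adjusted p = 3.25e-05) to −0.63 in Elane (adjusted p = 0.0306). Lcn2, at −1.07, did not pass (standard error 0.43, adjusted p = 0.398). These adjusted p-values come from 3 pairs and from variance estimates that borrow from other genes, so they do not measure replication beyond those pairs. The median log2 fold change of the 10 genes was −1.08 with the block and −1.12 without it, beside 0.01 over all tested genes in both fits. Without the block the median moved to −0.12 without control sample 3, −0.62 without cholesterol sample 1 and −2.25 without cholesterol sample 3. With the block and without each pair in turn it lay between −1.152 and −1.003. These ranges are not comparable, since leaving out 1 sample unbalances the sample numbers between the groups and leaving out a pair does not. No fit without the block left out a pair.
Of the 10 genes, 7 were under the threshold in all 5 fits that held the block (edgeR, DESeq2, and edgeR without each pair in turn). The others were Elane, Ctsg and Lcn2, each past it in 2 of the 5. Without pair 2, Elane and Ctsg were at −0.43 and −0.56 on the log2 scale and were not called (adjusted p = 0.398 and 0.509). Without pair 3 they were not called either (0.0638 and 0.0955), at −0.77 and −0.92, no smaller than with all pairs, nor were they by DESeq2 with the block (0.406 and 0.450). Lcn2 passed without pair 1, at −1.31 on the log2 scale (adjusted p = 2.32e-06), and without pair 3, at −0.78 (adjusted p = 0.000132). Pairs 1 and 2, which remained without pair 3, had log2 ratios of 0.65 and −1.43 and so went opposite ways. The adjusted p of that fit does not cover the spread between these pairs.

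The difference between sample numbers was tested as a factor beside condition in the same model. It was called for 9 of the 10 genes, where 46.3% of all tested genes were called. The adjusted p was between 2.88e-17 (Ngp) and 4.1e-05 (Ctsg) for the 9 genes, and 0.066 for Lcn2. Lcn2 passed without cholesterol sample 1 (adjusted p = 2.56e-10) and without control sample 1 (2.9e-09), and by DESeq2 (0.000363) and limma on log2(FPKM + 1) (0.0371), but not in the other 7 alternatives. The size differed between the granule classes. From sample 1 to sample 3 the fold was 2.76 to 8.97 for the primary granule genes in the control samples and 2.08 to 6.14 with cholesterol. For the secondary granule genes it was 13.4 to 24.5 and 6.54 to 15.7, the lowest being that of Lcn2, and for the calprotectin genes 10.7 and 13.8 in control and 10.3 and 13.1 with cholesterol. The secondary granule and calprotectin genes all had a higher fold in both groups than any primary granule gene.

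The classes therefore made up unequal shares of the granule signal in different samples. The primary granule genes held 23.3%, 11.8% and 6.82% of the members' summed FPKM in the controls and 29.2%, 14.8% and 9.37% with cholesterol. Their share was higher with cholesterol in 3 of 3 pairs. The ratio of summed secondary to summed primary granule FPKM was 1.12, 3.08 and 5.93 in the control samples and 0.919, 2.07 and 3.64 with cholesterol, lower in 3 of 3 pairs. These shares come from 3 pairs and carry no test. Per length, S100a9 was the most abundant member in all 6 samples, from 10.7 to 278 FPKM. Mpo ranked 3 among the 10 in both samples numbered 1, at 9.97 and 7.83 FPKM, and ranked 7 and 6 in control and cholesterol sample 3, at 26.9 and 15.7 FPKM. Ctsg was last in every sample but cholesterol sample 1, where Ltf, at 0.83 FPKM, was below its 0.91.

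**Figure D3:**
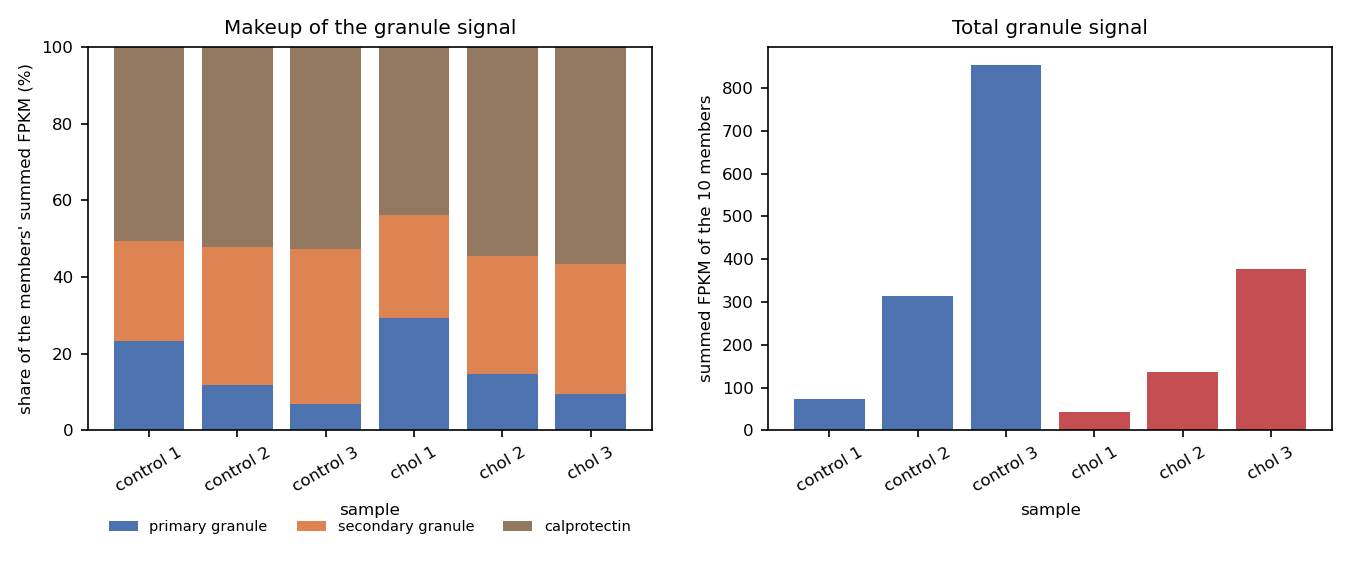
Left, share of the members' summed FPKM (in percent) held by primary granule, secondary granule and calprotectin genes in each sample. Right, summed FPKM of the 10 genes, which was 73.3, 315 and 854 for the controls and 42.5, 136 and 377 with cholesterol, so that the samples with the lowest total have the largest primary granule share.

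Over the 6 samples the log2 levels of the members varied together, with a Pearson correlation between 0.858 and 0.9995 over the 45 pairs of genes and a median of 0.970. The points share the sample number and the treatment, and 6 samples in 3 pairs are few, so this is a description. Among 10404 other genes with a mean of at least 1 CPM, the 10 whose log2 level was most like the mean of the members were Cd300ld, Olfm4, Stfa2l1, Ear1, Ptprc, Napsa, BC100530, Capza1, Prkcb and Stfa1, with r from 0.995 to 0.998, and 341 genes had an r of at least 0.95 while 243 had an r of −0.95 or below. Olfm4 encodes olfactomedin 4 of secondary granules, Stfa1 and Stfa2l1 encode stefins (cysteine protease inhibitors), and Ptprc encodes the pan-leukocyte protein CD45. Ptprc was at 1.52, 6.74 and 22.1 CPM in the control samples and 0.690, 2.22 and 6.75 CPM with cholesterol. Capza1, a subunit of the actin capping protein, followed the same order of samples but within 158 to 185 CPM. The stefin genes, and likewise Ear1, belong to families of close copies, so their single values are uncertain.

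Other neutrophil genes were read from lists of markers. Of 12 further secondary and tertiary granule genes, 10 were tested, and 9 fell with cholesterol in the fit with the block and 0 rose, with a median log2 fold change of −1.31, and 0 passed without the block. The most abundant were Olfm4, Anxa1, Hp and Mmp8. Olfm4 was at 4.85, 20.01 and 44.5 CPM in the control samples and 2.71, 7.16 and 17.5 CPM with cholesterol (log2 fold change −1.32, adjusted p = 9.89e-08 with the block). Mmp8, which encodes neutrophil collagenase, was at 1.42, 6.09 and 19.8 CPM and at 0.641, 2.82 and 5.06 CPM (−1.57, adjusted p = 5.33e-05). The member of this list that was tested and not called was Fcnb, which encodes ficolin B (−0.59, adjusted p = 0.115), and was named after its value was seen.
Of 10 further genes of primary granules and their handling, 9 were in the files, 8 were tested and 1 fell with the block (Cd63, a tetraspanin of granule membranes, −0.74, adjusted p = 0.0078, named after its value was seen), with a median of −0.56. Lyz2, which encodes lysozyme of neutrophils and macrophages, was at 11.7, 47.9 and 166.8 CPM in control and 6.999, 19.4 and 49.4 CPM with cholesterol, and did not pass (−1.43, adjusted p = 0.115 with the block). Gusb and Ap3b1, a lysosomal enzyme and an adaptor subunit that most cells express, lay between 42.9 and 51.7 CPM and between 87.5 and 97.1 CPM.
Of 12 neutrophil surface and cytosol genes, 9 were tested and 4 fell with the block, with a median of −0.92. Itgam, which encodes CD11b, was at 3.34, 13.7 and 50.0 CPM in control and 1.68, 4.001 and 15.5 CPM with cholesterol (−1.63, adjusted p = 3.11e-08). Cybb, the catalytic subunit of the phagocyte oxidase, was at 3.84, 12.7 and 45.5 CPM and 1.77, 5.53 and 15.2 CPM (−1.40, adjusted p = 7.96e-08). Itgb2, also among the most abundant, did not pass (−1.06, adjusted p = 0.0991). Nor did Csf3r (−0.90, adjusted p = 0.334) and Cxcr2 (−0.19, adjusted p = 0.494), named after their values were seen. Among the cholesterol samples Cxcr2 was highest in sample 1, at 7.79 CPM beside 6.72 CPM in control sample 1. Ly6g, the surface marker by which mature mouse neutrophils are sorted, named after its value was seen, had 0, 2 and 4 counts in the control samples and 1 in each cholesterol sample, where 3 counts were taken as the smallest detectable number.
Of 10 transcription factor genes on the granulocyte list, all tested, 2 fell with the block. Spi1, which encodes PU.1, was at 3.84, 7.68 and 22.4 CPM in control and 2.51, 4.001 and 8.38 CPM with cholesterol (−1.10, adjusted p = 0.000135). The other was Cebpe, of the C/EBP family (−1.415, adjusted p = 0.0114). Cebpa and Cebpd were at −0.86 and −1.155 and did not pass (adjusted p = 0.069 and 0.0683). These 3 genes were named after their values were seen. Runx1 and Cebpb, both also used outside granulocytes, were at 36.3 to 49.4 and 33.0 to 67.7 CPM and did not pass (adjusted p = 0.267 and 0.866).

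Markers of other cell types moved with the granule genes, and their part in these results was not tested. The 14 monocyte and macrophage genes summed to 25.1, 61.6 and 229 CPM in the controls and to 18.6, 29.5 and 95.7 CPM with cholesterol, and of 13 tested genes 8 fell with the block and 1 rose. That was Cd5l, which encodes a secreted macrophage protein and was named after its value was seen, with 3, 4 and 25 counts in the control and 17, 18 and 75 in the cholesterol samples (log2 fold change 1.83, adjusted p = 0.00319). The 8 mast cell and basophil genes in the files summed to 3.18, 7.73 and 31.9 CPM in control and 1.28, 2.47 and 5.27 CPM with cholesterol, with all 3 tested genes (Hdc, Cpa3 and Mcpt8) lower with the block and Tpsb2 at 0 in every sample. The 8 eosinophil genes summed to 14.3, 24.4 and 48.2 CPM and to 10.2, 16.7 and 37.5 CPM, with 1 of 7 tested genes (Prg2) lower.
The hepatocyte, megakaryocyte and erythroid sums did not have the order of samples that the members had. The erythroid genes summed to 91261, 85760 and 108810 CPM in control and to 74152, 83125 and 102990 CPM with cholesterol. Only control samples 1 and 2 broke the order there. The hepatocyte genes summed to 151, 125 and 363 CPM in control and to 264, 87.1 and 306 CPM with cholesterol, with 0 of 8 called with the block. The megakaryocyte genes summed to between 80.5 and 101 CPM in all 6 samples, with 1 of 8 called lower, Itga2b. The 6 lymphocyte genes in the files summed to 0.556, 1.29 and 5.61 CPM in control and 0.690, 0.939 and 1.84 CPM with cholesterol, with Ms4a1 at 0 in every sample and none tested. Of 11 erythroid genes 2 fell with the block (Tfrc, log2 fold change −0.16, adjusted p = 0.0153, and Alas2, −0.14, adjusted p = 0.0382), and the median over the list was −0.10. Lower in all 3 pairs were 10 of these 11 genes, so that direction within pairs was not particular to the granule genes.

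**Figure D4:**
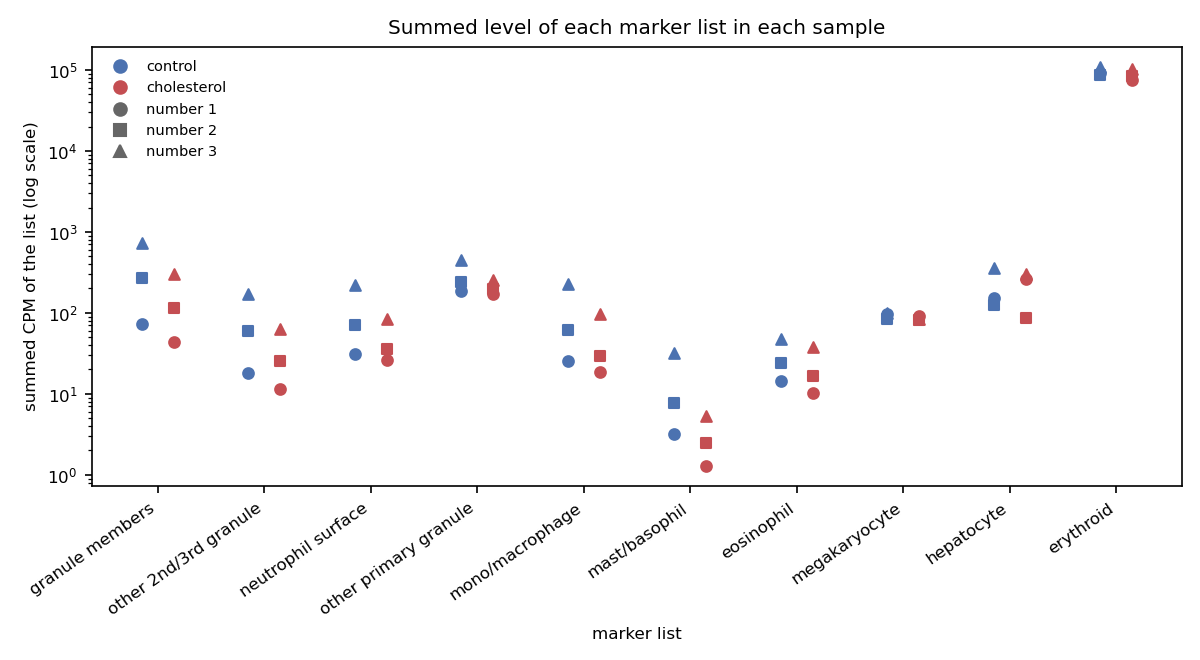
Summed level of each marker list in CPM (log scale) in the control (blue) and cholesterol (red) samples, with the sample number as the marker shape. The granule, neutrophil, macrophage, mast cell and eosinophil lists are ordered 1, 2, 3 within each group and lower with cholesterol at each number, the hepatocyte list is highest in control sample 3 and lowest in cholesterol sample 2, and the erythroid list lies above all others.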

How the data were processed

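RNA-seq was analysed in 6 samples, 3 control and 3 cholesterol, grouped by the treatment in the sample labels. The authors deposited expected counts per gene (27.9% to 29.5% of the values per sample are not whole) and a second table that names no unit, whose values were taken as FPKM computed by the authors, since the length implied by count, total count and value differed by less than 10% between samples for 98.1% of 4509 genes at 10 or more in every sample, and for all 10 members. The submitters' processing notes name HISAT2 2.0.4, Bowtie2 2.2.5, RSEM 1.2.12, DESeq2 1.4.5 and GRCm38.p6, with no roles. The annotation and filters are not given in the sources used here.

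Expected counts were rounded and tested with edgeR 4.0.16 in R 4.3.3 (filterByExpr with at least 10 counts in enough samples and 15 in total, TMM, robust quasi-likelihood test, Benjamini-Hochberg over 11277 genes). Standard errors were derived from the F statistic. The design was written for counts and did not change. Where the text gives a CPM, counts were divided by the TMM-scaled library size of the tested genes, and 3 counts were 0.148 to 0.156 CPM. Alternatives used DESeq2 1.42.0 and limma 3.58.1, on log2(FPKM + 1) and log2(FPKM + 0.1). Such fold changes understate low genes.

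The labels number samples 1 to 3 in both groups. Over 11277 genes the departures from the group mean correlated at 0.729, 0.348 and 0.825 for numbers 1, 2 and 3, which was taken as pairing from the data, not from the labels. Cholesterol sample 2 correlated about as well with control sample 1 (0.346). No libraries were copies (chi-square per degree of freedom at least 8.65). Intervals of ratios are exact binomial (Clopper-Pearson). The members and lists were chosen with earlier results of these data known. Besides the members, the text names up to 4 genes per list with the highest mean CPM, the 10 genes most correlated with the members, and genes said to be named after their values were seen, as were Alas2, Tpsb2 and Ms4a1. The fits were tested on simulated data. The fit with the block recovered more of the changed genes than condition alone, which made no false call. Both the fit with the block and the test of sample numbers had a share of false calls above the adjusted p threshold. For the treatment, the simulated samples of the same number shared their levels by construction, which favoured the block. That comparison therefore cannot decide whether the real samples are paired.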

Additional observations from a re-analysis of the deposited data

How the results depend on the processing

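Without the sample number in the model, 0 of 130 values of the members over the 13 other settings passed the threshold. Of these values 4 changed sign, all without control sample 3, to log2 fold changes of 0.15 for Elane, 0.23 for Lcn2, 0.042 for S100a8 and 0.037 for S100a9, each with an adjusted p of 0.999 in edgeR. Without cholesterol sample 3, the other end of the range, the 4 values were −1.58, −2.34, −2.16 and −2.37. Leaving out control sample 3 takes away the sample with the highest level of every member. With the replicate block the number of members called went from 0 to 9 (7 in DESeq2 with the block, and 7 to 10 without each pair in turn), and 0 of 50 member values changed sign. Here whole pairs were left out, not single samples, so the counts of sign changes with and without the block cannot be compared. Over all genes, 1 was called without the block and 772 with it, 31 by DESeq2 and 289 by DESeq2 with the block. Leaving out single samples without the block gave 1 to 8, the 8 without control sample 3 and 2 without cholesterol sample 3, and leaving out pairs with it gave 296 (pair 2), 726 (pair 3) and 821 (pair 1). The difference between sample numbers was called for 9 or 10 members in every alternative, and for 5220 genes in all, or 3016 in DESeq2. The causes of these differences were not tested. RLE factors, library totals, filters and pseudocounts moved no count of treatment calls past 1.5 times. With 3 samples a group, and as few as 15 counts for Ctsg, small differences in the rarest members could not be resolved.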
